A study of Mus musculus with 2 samples.

Results

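The small leucine-rich proteoglycans are secreted matrix proteins built around repeats rich in leucine. The genes Dcn, Bgn, Lum, Fmod, Prelp, Ogn, Aspn, Kera, Omd and Chad were taken by name from a count table of mouse retinal pigment epithelium (RPE)-choroid. All 10 listed names were found among its 23420 gene rows, and all 10 passed the filter on low counts. The RPE-choroid joins the pigmented layer beneath the retina to the blood-vessel layer outside it. Mice were untreated and aged 11 to 13 months, and RPE-choroid from 2 eyes was pooled for each polyA-enriched library. The knockout group has the genotype AhR -/- on strain B6.129-AhRtm1Bra/J, a germline allele of the aryl hydrocarbon receptor, and the wild-type group is AhR +/+ on strain C57BL6/J. Each group has 3 animals and 1 library for each animal, which are called animals 1, 2 and 3 as the labels number them. The groups are given as separate strains, so the allele and any other difference between the strains cannot be told apart. The comparison asks which transcripts of this tissue differ without the receptor, a ligand-activated transcription factor.

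These proteoglycans bind the surface of collagen fibrils and set their diameter and spacing in sclera, cornea, tendon, cartilage and skin. Decorin and biglycan carry chondroitin or dermatan sulphate chains, and lumican, fibromodulin and keratocan carry keratan sulphate in some tissues. In the eye, lumican and keratocan are known for the ordered fibrils that keep the corneal stroma clear, and family members are also found in the sclera. Several have signalling roles besides: decorin binds transforming growth factor beta and growth factor receptors, and biglycan binds Toll-like receptors on macrophages.

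Ahr itself stood at 41.4, 45.4 and 40.6 CPM (counts scaled to library size) in the AhR -/- animals 1, 2 and 3, against 19.7, 20.2 and 26.0 CPM in the wild-type animals. The values in AhR -/- animals lay above every wild-type value, which goes against a loss of the transcript, although a count over the whole gene does not show whether the targeted part is missing. The AhR -/- libraries are therefore called knockout-labelled, and each direction below rests on the labels. Totals over genes ran from 18058725 to 28692624 counts a library, and even Kera, the scarcest member, had 37 to 258 counts in every library. The pigment epithelium markers Rpe65 and Ttr were high throughout, at 1326 CPM and 13460 CPM in the lowest library, so these defining markers of the labelled tissue were present. Markers of corneal and conjunctival epithelium, tissues of the front of the eye, were present in every library, although the labels state that the front segment and the retina were taken off. Their 8 genes summed to 2833, 11320 and 8791 CPM in knockout-labelled animals 1, 2 and 3, against 4597, 1887 and 2300 CPM in the wild type. Knockout-labelled animal 1 also stood apart in red cell transcripts, whose 6 genes summed to 1076 CPM there, against 55.9 and 77.1 CPM in the other knockout-labelled animals and 4.29 to 33.6 CPM in the wild type (median log2 fold change 4.41 over the 2 tested). Xist and the Y-linked gene Ddx3y showed animal 1 to be female in both groups and animals 2 and 3 to be male.

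The genes lie in 3 clusters and at 2 single sites (mm10, the build of the counts, which is GRCm38; positions from GENCODE M21). On chromosome 10, Dcn (97479609 to 97518143), Lum (97565128 to 97572703) and Kera (97606879 to 97613692) follow one another on the plus strand, with the family gene Epyc next, over a span of 202.8 kb. On chromosome 13, Aspn (49544443 to 49567565), Omd (49582462 to 49592822) and Ogn (49608046 to 49624501) follow Ecm2 on the plus strand over 119.7 kb. On chromosome 1, Prelp (133910304 to 133921414, minus strand) and Fmod (134037254 to 134048277, plus strand) lie beside Optc within 151.1 kb. Bgn is on the X chromosome (73483602 to 73495933) and Chad on chromosome 11 (94565047 to 94569127), both on the plus strand. None of the 10 lies on chromosome 12, which holds Ahr. Aspn, Omd and Ogn lie inside the span of Cenpp and Chad inside that of Acsf2, each on the opposite strand. Of these only Aspn shares exon bases with the other gene, 7 in all. Prelp shares 350 exon bases (9.7% of its exons) with the antisense gene Gm15851, so its count is less certain, since the strand setting of the counting is not given in the sources used here.

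The aryl hydrocarbon receptor binds, with its partner ARNT, the dioxin response element, whose core is GCGTG. The 250 bases before the start of transcription were therefore searched on both strands for that core and for the TATA box letters TATAAA, which cannot overlap the core. RefSeq (GRCm38.p6) gave windows for 8 of the 10 members, set by its own starts, which can differ from those of GENCODE. The Kera window (97606955 to 97607204) lies inside the GENCODE span of that gene. That of Prelp (133921402 to 133921651) overlaps its GENCODE span. Windows are shown for Bgn, which was the only member window with the core, and for Chad and Fmod, which had the lowest fold changes in the knockout-labelled libraries. The window of Ogn, whose fold change lay near 0, is shown too. Each is written 5′ to 3′ on the gene's own strand, here the plus strand for all 4, and capitals mark matches on either strand to the core or to the TATA letters.
Bgn chrX:73483351-73483600: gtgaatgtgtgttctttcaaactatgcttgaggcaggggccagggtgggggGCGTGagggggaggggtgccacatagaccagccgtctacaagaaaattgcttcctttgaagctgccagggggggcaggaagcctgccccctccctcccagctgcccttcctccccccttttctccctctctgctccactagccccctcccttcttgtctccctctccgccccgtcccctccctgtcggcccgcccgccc
Chad chr11:94564797-94565046: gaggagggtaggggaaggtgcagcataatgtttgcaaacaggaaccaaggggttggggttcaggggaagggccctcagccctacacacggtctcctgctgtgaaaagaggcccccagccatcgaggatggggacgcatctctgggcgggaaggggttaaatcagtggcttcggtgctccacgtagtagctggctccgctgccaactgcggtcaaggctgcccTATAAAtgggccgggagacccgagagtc
Fmod chr1:134037004-134037253: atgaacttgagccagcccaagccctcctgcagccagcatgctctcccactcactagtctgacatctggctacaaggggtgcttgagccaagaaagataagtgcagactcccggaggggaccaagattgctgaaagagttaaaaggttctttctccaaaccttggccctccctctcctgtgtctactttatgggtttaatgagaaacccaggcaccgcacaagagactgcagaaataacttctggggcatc
Ogn chr13:49607765-49608014: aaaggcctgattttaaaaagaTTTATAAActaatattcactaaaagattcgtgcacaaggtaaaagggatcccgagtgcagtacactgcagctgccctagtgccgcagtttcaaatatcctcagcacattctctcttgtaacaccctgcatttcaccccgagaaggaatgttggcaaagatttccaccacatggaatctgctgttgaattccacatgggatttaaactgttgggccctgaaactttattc
The core was found in 1 of the 8 member windows, against 28.2% of 27025 windows of this length in the table. The TATA letters were found in 3 of the 8, those of Chad, Ogn and Aspn, against 13.0% of all windows. A match is a description of the letters and not a binding site. The Bgn and Chad windows had a GC content of 64.4% and 60.4%, and those of Fmod and Ogn 51.2% and 42.0%.

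Decorin stood far above the other members in level, and keratocan far below. On a scale of CPM per kb of exon, Dcn averaged 3013 ± 128 in the knockout-labelled and 3310 ± 325 in the wild-type libraries (SD, n = 3 each). That placed Dcn, whose protein caps collagen fibrils and holds back their lateral growth, between rank 4 and rank 6 of 14820 genes in every library. Bgn, which encodes the close relative biglycan, came next at 613 ± 149 and 822 ± 135 CPM per kb, at ranks 30 to 68. Dcn made up 67.7% to 74.8% of the summed CPM per kb of the 10 members in the knockout-labelled libraries and 63.8% to 70.8% in the wild type.

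Below these, 5 members formed a middle tier whose order differed between the groups. In the knockout-labelled libraries the mean order was Lum (162 ± 18.5 CPM per kb), Fmod (114 ± 25.2), Chad (111 ± 46.4), Ogn (92.6 ± 7.28) and Prelp (65.9 ± 8.82; SD, n = 3). In the wild type it was Chad (267 ± 72.6 CPM per kb), Fmod (190 ± 44.3), Lum (128 ± 15.2), Prelp (75.1 to 97.9 over the libraries) and Ogn (82.4 ± 18.9; SD, n = 3). Neighbours in the knockout-labelled order overlapped over the libraries from Lum to Ogn, while Ogn and Prelp were apart. In the wild-type order Chad overlapped Fmod, Fmod overlapped Lum and Prelp overlapped Ogn, while Lum and Prelp were apart. Aspn (20.8 ± 10.3 in knockout-labelled and 27.8 ± 10.7 in wild type) and Omd (13.5 ± 5.60 and 17.2 ± 4.16) came lower, and their ranges overlapped. Kera was last, at 3.56 ± 2.77 and 2.13 ± 0.98 CPM per kb (SD, n = 3 each).

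**Figure D1:**
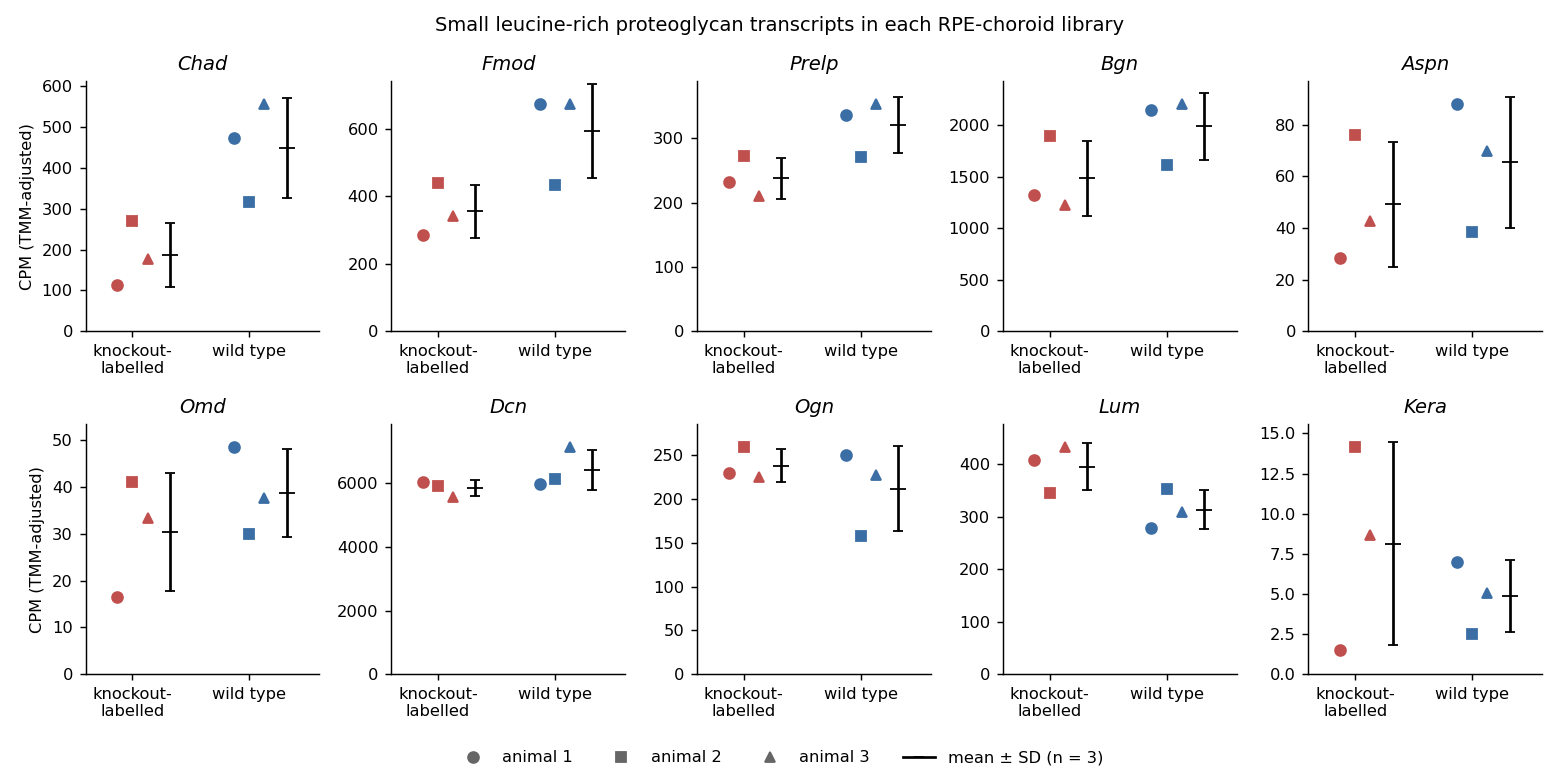
CPM of each member in each library on a linear axis from 0, knockout-labelled left of wild type, with the 3 animals as separate symbols and the mean ± SD (n = 3) as a bar. The groups are apart only for Chad, where the knockout-labelled libraries lie between 114 and 269 CPM and the wild-type libraries between 316 and 557 CPM.

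Between the genotypes, 0 of the 10 members passed at an adjusted p under 0.05 (edgeR quasi-likelihood test, Benjamini-Hochberg adjusted over all 15796 genes tested). The same test called 8 of all genes (0.0506%), with 0.0253% lower and 0.0253% higher. Of the members 7 had a log2 fold change below 0, beside 48.8% of all genes, and the median of the 10 was -0.38, beside 0.01 over all genes tested. At an unadjusted p under 0.05, 3 members were lower in the knockout-labelled libraries, beside 6.62% of all genes, and 0 were higher, beside 7.55%. Chad was the only 1 of the 10 whose groups did not overlap, with the knockout-labelled libraries lower, beside 9.96% of all genes apart in that direction. Summed over the 10 members, the level was 8675, 9544 and 8257 CPM in knockout-labelled animals 1 to 3, against 10290, 9340 and 11580 CPM in the wild-type animals, and the groups overlapped. In bulk tissue, fewer cells of a type and less RNA per cell cannot be told apart. The count of members called was also 0 with upper-quartile factors (0.0950% of all genes called), limma-voom (0.0823%), the animal number as a block (0.00633%), a sex covariate (0.00633%) and the GC correction (0.0472%). It was 0 with any 1 library left out, where the share of all genes called was 4.95% once knockout-labelled animal 1 was dropped, 0.0559% for wild-type animal 1, 0.00620% for animal 2 of that group and 0.00% for each of the others. With RLE factors (0.0506%), a filter of 1 CPM in 3 libraries (0.108%) and no filter beyond 1 count (0.122%) it was 0 too.

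**Figure D2:**
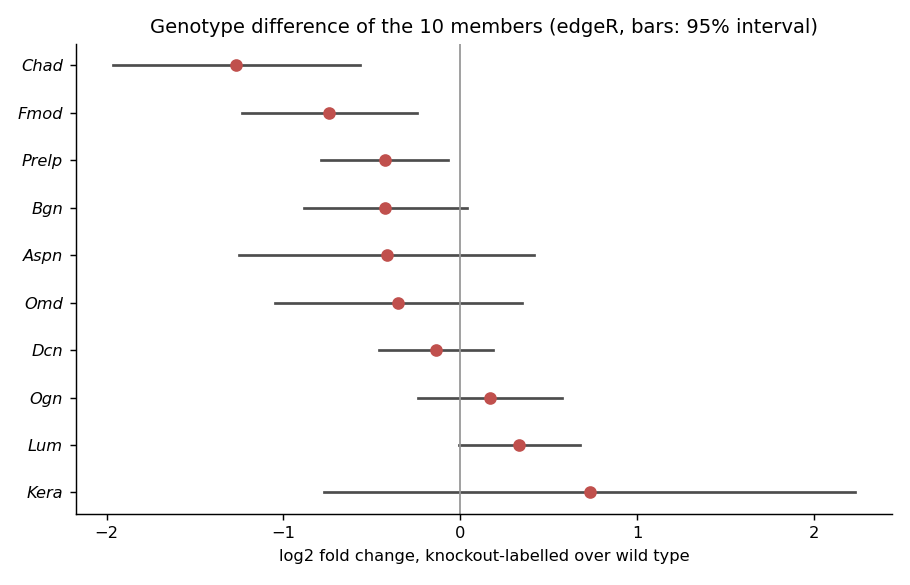
Log2 fold change of each member, knockout-labelled over wild type, from edgeR on 3 against 3 libraries, with its 95% interval as a bar. The intervals of Chad, Fmod and Prelp lie below 0 and those of the other 7 members hold 0, before any adjustment for the number of genes.

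Chad had the largest difference of the 10. It encodes chondroadherin, a protein that binds collagen and integrins and is best known from cartilage, bone and tendon. Its level was 114, 269 and 177 CPM in knockout-labelled animals 1, 2 and 3, against 472, 316 and 557 CPM in wild-type animals 1, 2 and 3. Every knockout-labelled library lay below every wild-type library, and animal 1 of the knockout-labelled group was the lowest of the 6. The log2 fold change was -1.27 (SE 0.31, 95% interval -1.97 to -0.57), with an edgeR adjusted p of 0.171. Chad was called by DESeq2 (adjusted p = 0.000885, where 3.00% of genes were called) and by the edgeR exact test (adjusted p = 0.0122, 2.26% of genes called). The authors' deposited table lists Chad at a log2 fold change of 1.34, coded wild type over knockout, with an FDR of 0.000722. In that deposited table of the authors, 2.37% of genes have an FDR under 0.05, and 0.749% have one and are lower in the knockout. With each library left out in turn, the log2 fold change of Chad ran from -1.63 to -1.01 and the gene was called in none of these fits (adjusted p from 0.0636 to 0.408). With the mean log2 CPM of the corneal and conjunctival epithelial markers as a covariate it was -1.81 (edgeR adjusted p = 0.0404, where 0.222% of genes were called). Its neighbour on the other strand, Acsf2, stood at 36.6 ± 5.09 CPM in knockout-labelled and 44.9 ± 3.21 CPM in wild-type libraries (SD, n = 3 each).

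Fmod and Prelp, neighbours on chromosome 1, were the next lowest by unadjusted p. Fibromodulin, the product of Fmod, regulates early fibril assembly and collagen cross-linking and is abundant in tendon and sclera. Fmod had 285, 441 and 340 CPM in knockout-labelled animals 1 to 3, against 674, 434 and 673 CPM in wild-type animals 1 to 3. Knockout-labelled animal 2 and wild-type animal 2 had almost the same level, while the other 2 wild-type animals lay well above all knockout-labelled ones. The log2 fold change was -0.74 (SE 0.22, 95% interval -1.24 to -0.25, edgeR adjusted p = 0.215). DESeq2 called it at an adjusted p of 0.0224, whereas the authors' deposited table gives an FDR of 0.0675.

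PRELP anchors basement membranes to collagen and binds heparan sulphate through a basic end. Prelp had 232, 273 and 210 CPM in knockout-labelled animals, against 336, 271 and 354 CPM in wild-type animals. The groups overlapped only through the animal 2 libraries. The log2 fold change was -0.43 (SE 0.16, 95% interval -0.79 to -0.07), and it did not pass (edgeR adjusted p = 0.287). Optc, which lies beside Prelp and encodes opticin, a protein of the vitreous made by the ciliary body, ranged from 30.1 to 88.1 CPM in knockout-labelled and from 10.6 to 101 CPM in wild-type libraries.

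Decorin and biglycan form the class that carries chondroitin or dermatan sulphate. Dcn had 6034, 5930 and 5561 CPM in knockout-labelled animals 1 to 3, against 5988, 6125 and 7141 CPM in the wild type. Apart from wild-type animal 3, all libraries were within a narrow band, and the log2 fold change was -0.14 with a 95% interval of -0.46 to 0.19 (edgeR adjusted p = 0.719). Bgn had 1327, 1896 and 1226 CPM in knockout-labelled animals, against 2144, 1613 and 2208 CPM in the wild type. Here the animal 2 libraries were again in reversed order, the knockout-labelled one above the wild-type one. The log2 fold change of Bgn was -0.42 (95% interval -0.88 to 0.04, edgeR adjusted p = 0.392). Bgn is X-linked, and its difference was -0.69 between the 2 females and -0.31 between the males, on the log2 scale. Asporin, the product of Aspn, is close to decorin in sequence, bears a run of aspartates and binds calcium and collagen. Aspn had 28.4, 75.9 and 42.9 CPM in knockout-labelled animals, against 88.1, 38.3 and 69.7 CPM in the wild type, so that both groups spread widely and overlapped. Its log2 fold change was -0.42 (95% interval -1.25 to 0.42, edgeR adjusted p = 0.656), and none of the settings called it. With 1 library left out it ran from -0.87 (without knockout-labelled animal 2) to -0.14 (without either animal 1), and with the cornea marker covariate it was -1.10 (edgeR adjusted p = 0.177).

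Lumican, which spaces collagen fibrils in cornea and skin, had values on the other side. Lum had 408, 345 and 433 CPM in knockout-labelled animals 1 to 3, against 279, 353 and 310 CPM in wild-type animals 1 to 3. The groups overlapped only through the animal 2 libraries, and the other knockout-labelled animals lay above every wild-type one. The log2 fold change was 0.33 (SE 0.15, 95% interval -0.01 to 0.68), and it did not pass (edgeR adjusted p = 0.363). Set against the other members within each library, per kb of exon, Lum was 2.46, 0.88 and 1.68 times Chad in the knockout-labelled animals, against 0.40, 0.77 and 0.38 times in the wild type. It was 0.0536, 0.0461 and 0.0617 times Dcn in the knockout-labelled animals, against 0.0368, 0.0456 and 0.0344 times in the wild type, which puts the groups just apart. Chad was 0.022, 0.052 and 0.037 times Dcn in the knockout-labelled libraries, against 0.091, 0.060 and 0.090 times in the wild-type ones. The ratios of Lum to Fmod, Lum to Kera, Dcn to Bgn, Ogn to Aspn and Fmod to Prelp overlapped between the groups. Those of Ogn to Omd and Chad to Fmod did not. None of these ratios depends on library scaling. All were chosen with the members' values known, and none has a test here.

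Ogn encodes osteoglycin (mimecan), found in cornea, bone and vessel walls. Ogn had 229, 259 and 224 CPM in knockout-labelled animals, against 250, 157 and 228 CPM in the wild type. Wild-type animal 2 was the low one, and the log2 fold change was 0.17 (95% interval -0.24 to 0.57, edgeR adjusted p = 0.726), or -0.01 without that library. Omd, its neighbour, encodes osteomodulin, a keratan sulphate proteoglycan of bone and teeth. Omd had 16.5, 41.0 and 33.4 CPM in knockout-labelled animals, against 48.5, 29.9 and 37.5 CPM in the wild type. The low knockout-labelled animal was animal 1, and the log2 fold change was -0.35 (95% interval -1.05 to 0.35, edgeR adjusted p = 0.653). It was -0.06 without that animal, -0.63 without knockout-labelled animal 2 and -1.04 with the cornea marker covariate (edgeR adjusted p = 0.0607). The bone genes Bglap and Ibsp, singled out for this, were at 0 counts in all 6 libraries. Reads with several alignments were assigned to no gene, so a count of 0 need not mean that the RNA was absent. This was not tested. Alpl, Postn and Runx2, the 3 most abundant genes of the same bone list, were present in every library. They ranged from 132 to 179.5, from 40.0 to 64.7 and from 5.08 to 14.9 CPM.

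Keratocan is the member most tied to the cornea, where stromal cells make it for fibril spacing. Kera had 1.55, 14.2 and 8.66 CPM in knockout-labelled animals 1 to 3, against 6.99, 2.52 and 5.08 CPM in wild-type animals 1 to 3. The knockout-labelled group held both the lowest and the highest library, a 9.13-fold range over the 6, and the log2 fold change of 0.73 had a 95% interval of -0.77 to 2.24 (edgeR adjusted p = 0.663). Krt12, the keratin of corneal epithelium, had 206, 4103 and 2903 CPM in knockout-labelled animals, against 805, 511 and 302 CPM in the wild type. Aldh3a1, an abundant enzyme of the cornea, had 377, 3160 and 2416 CPM in knockout-labelled animals, against 1050, 544 and 398 CPM in the wild type. These and Kera were lowest of the 6 libraries in knockout-labelled animal 1 and highest in knockout-labelled animal 2. Other cornea-related markers did not all share that order. Angptl7, the third most abundant of the 5 genes listed for corneal stroma, had 302, 109 and 138 CPM in knockout-labelled animals, against 185, 245 and 253 CPM in the wild type. Knockout-labelled animal 1 was the highest there and knockout-labelled animal 2 the lowest. Of the same list, Tkt, a metabolic enzyme abundant in cornea, had a log2 fold change of 0.90, Angptl7 had -0.31, and Clec3b, named after its values were seen, had -0.10. With the epithelial marker covariate the log2 fold change of Kera turned to -1.08 (edgeR adjusted p = 0.501). Without knockout-labelled animal 1 it was 1.22, and without knockout-labelled animal 2 it was 0.07. All 8 corneal and conjunctival epithelial markers had log2 fold changes above 0 (median 1.24), 7 of them with an unadjusted p under 0.05, beside 7.55% of all genes in that direction. The groups overlapped for each of the 8, whereas 1585 of all 15796 genes were apart with the knockout-labelled libraries higher.

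**Figure D3:**
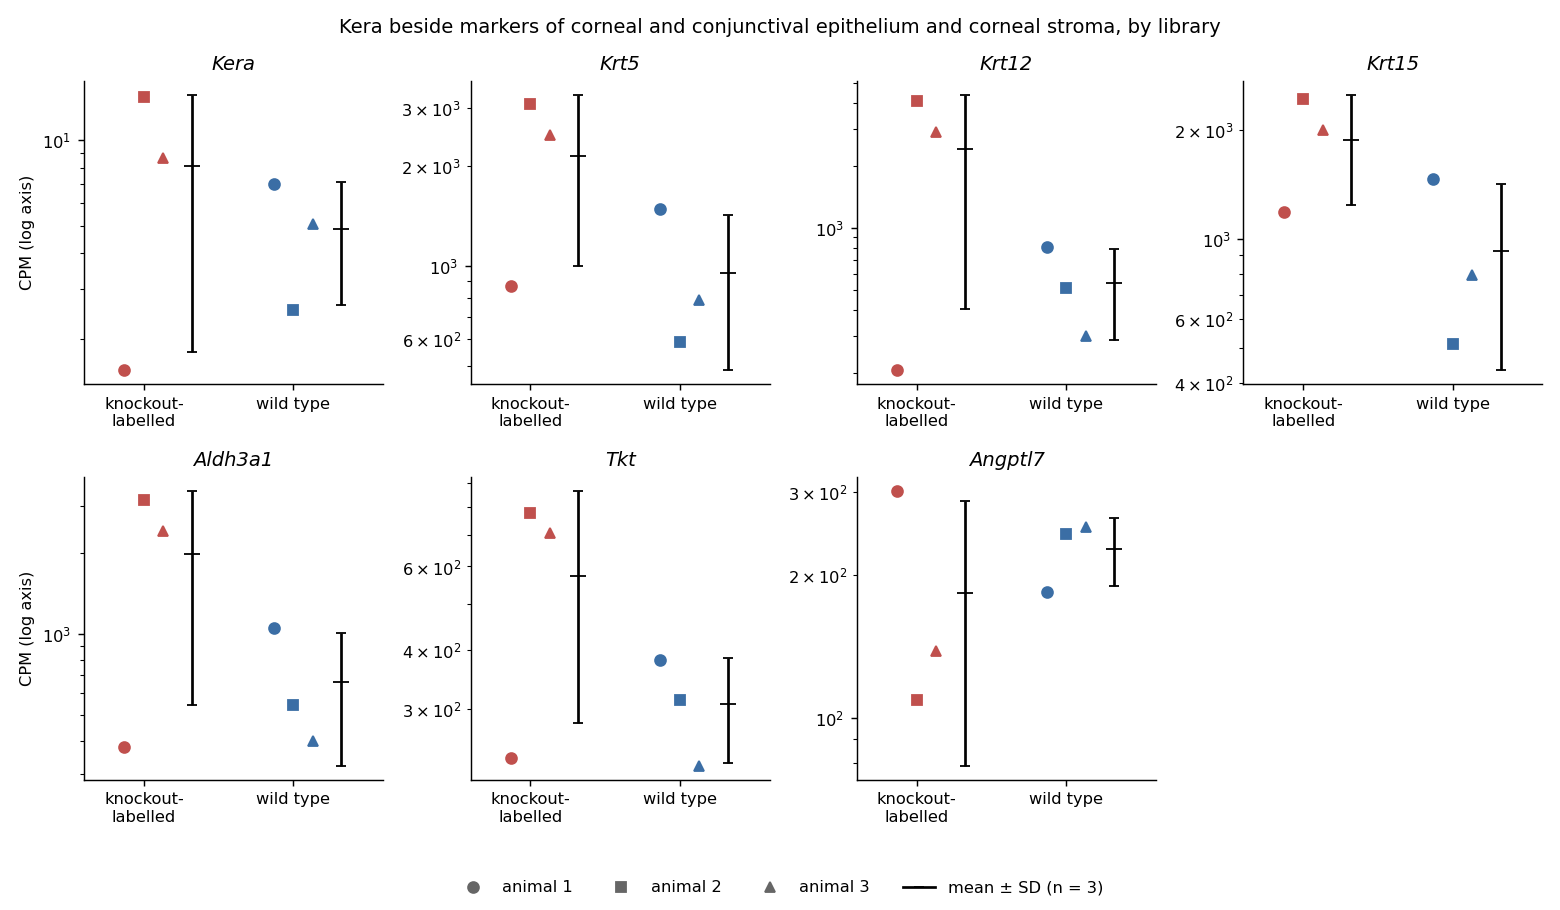
CPM on a log axis of Kera, of the 3 most abundant epithelial markers (Krt5, Krt12, Krt15) and of the 3 most abundant genes listed for corneal stroma (Aldh3a1, Tkt, Angptl7). Knockout-labelled is left of wild type, with animals as symbols and the mean ± SD (n = 3) as a bar. Whether Aldh3a1 and Tkt came from stroma or epithelium was not tested. Knockout-labelled animal 1 is the lowest library for Kera (1.55 CPM), Krt12 and Aldh3a1, whereas it is the highest for Angptl7 (302 CPM), and wild-type animals are the lowest for Krt5, Krt15 and Tkt.

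The members were uneven in how much they varied between animals of one group. For Dcn the SD of log2 CPM was 0.06 among knockout-labelled animals and 0.14 among wild-type animals, and for Aspn it was 0.71 and 0.62. Over 10832 genes averaging 10 CPM or more, the median SD was 0.21 among knockout-labelled and 0.15 among wild-type animals, with 90th percentiles of 0.48 and 0.38. Aspn lay beyond that percentile in both groups, and Chad (0.62 and 0.42) did too. Omd was beyond it in the knockout-labelled group alone (0.69 and 0.35), while Lum (0.17 and 0.17) was near the median of all genes. Knockout-labelled animal 1 had the lowest value of the 6 libraries for 5 members, namely Fmod, Aspn, Kera, Omd and Chad. Wild-type animal 3 had the highest value for 4 members, namely Dcn, Bgn, Prelp and Chad.

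With 1 female in each group, the genotype difference could also be read within each sex. Between the females and between the males the sign of the difference was the same for 5 members, namely Bgn, Lum, Fmod, Prelp and Chad, and opposite for the other 5. Chad differed by -2.05 between the females and by -0.94 between the males on the log2 scale, and Lum by 0.55 and 0.23. Aspn differed by -1.63 between the females and 0.14 between the males, and Omd by -1.56 and 0.15. A test of the difference between the sexes called 0 members (adjusted p of 0.0586 for Omd and 0.0769 for Kera, the lowest of the 10), beside 1.18% of all genes. With 1 female library for each genotype, the spread in that test comes from the 4 male libraries alone, and the female difference rests on knockout-labelled animal 1, the library that stood apart in red cell transcripts. In males alone, 0 members were called, with adjusted p of 0.0796 for Kera (log2 fold change 1.58) and 0.093 for Chad (-0.97), while 5.50% of all genes were called.

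**Figure D4:**
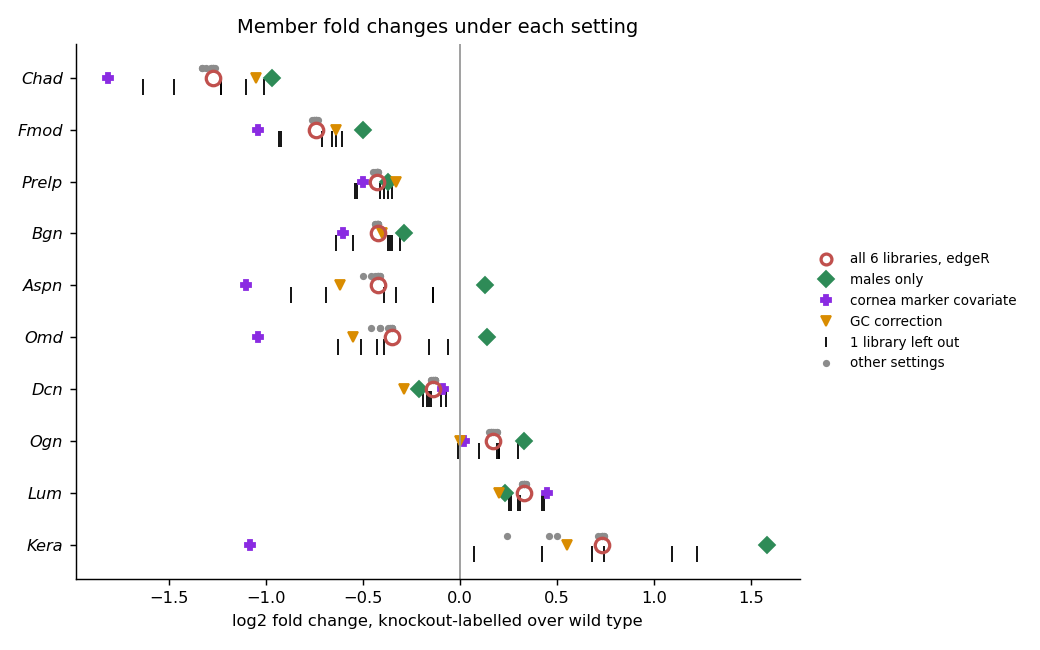
Log2 fold change of each member, knockout-labelled over wild type, with all 6 libraries in edgeR (open circles) and under 18 other settings (small symbols). Chad stays between -1.81 and -0.97, Fmod between -1.04 and -0.50 and Lum between 0.20 and 0.45, whereas Aspn, Omd, Ogn and Kera reach both sides of 0.

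The members also differed in base composition. The 4 members whose longest transcript has a GC content above 50%, namely Bgn, Prelp, Fmod and Chad (51.2% to 56.7%), had log2 fold changes from -1.27 to -0.42. The other 6 (34.3% to 41.9%) had log2 fold changes from -0.42 to 0.73. Across 14820 tested genes, which are not independent replicates, the Spearman correlation of log2 fold change with transcript GC content was -0.33. After the trend with GC content was removed from each library, Chad was at -1.05 (edgeR adjusted p = 0.302), Fmod at -0.64, Prelp at -0.33, Bgn at -0.40, Lum at 0.20 and Ogn at 0.00. Aspn and Omd, with transcripts of low GC content, moved to -0.62 and -0.55, away from 0.

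**Figure D5:**
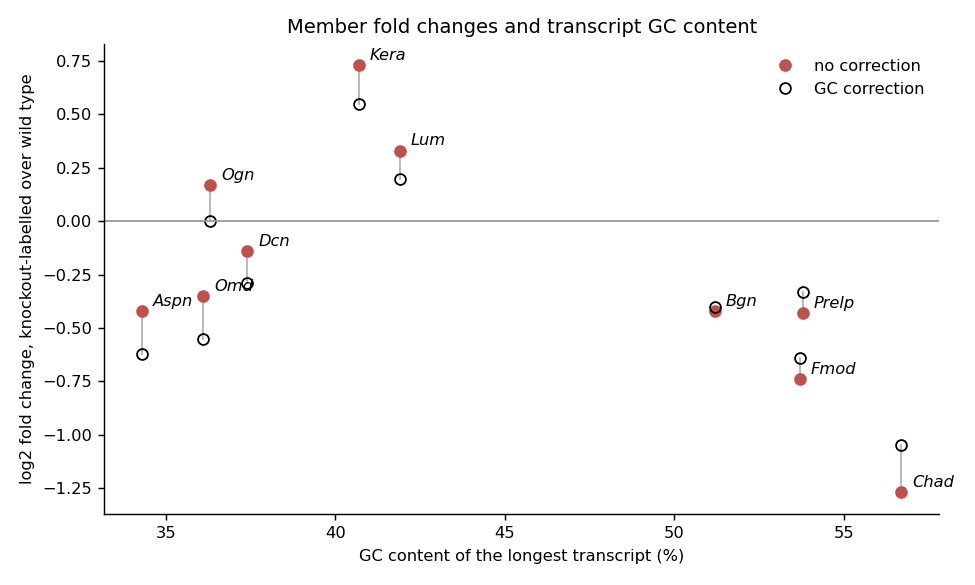
Log2 fold change of each member, knockout-labelled over wild type, against the GC content of its longest transcript, before (filled) and after (open) the trend with GC content was removed from each library. Chad moves from -1.27 to -1.05, and the members with a GC content above 50% stay below 0.

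Of 13 collagens listed as bound by these proteoglycans, 0 were called. Beside fibril-forming chains, the list holds the fibril-associated Col12a1 and Col14a1 and the type VI chains Col6a1, Col6a2 and Col6a3. All 13 had log2 fold changes below 0, with a median of -0.48 beside 0.01 over all genes, 9 had an unadjusted p under 0.05, beside 6.62% of all genes in that direction, and 8 had groups that did not overlap, beside 9.96%. Col1a2, a chain of type I collagen, was the highest, at 1126, 1497 and 1273 CPM in knockout-labelled animals, against 2018, 1639 and 2441 CPM in the wild type (log2 fold change -0.65, edgeR adjusted p = 0.204). Col1a1, the other chain, had 322 ± 63.1 CPM in knockout-labelled and 725 ± 124 CPM in wild-type libraries (log2 fold change -1.17, edgeR adjusted p = 0.0946; SD, n = 3 each). Col12a1, which sits on fibril surfaces, had 276 ± 45.6 CPM in knockout-labelled and 364 ± 78.9 CPM in wild-type libraries (SD, n = 3 each).

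Of the 8 other family genes 0 were called, with 4 fold changes above 0 and 4 below and a median of 0.00. Groups were apart for 1 gene with the knockout-labelled libraries higher, beside 1585 of all 15796 genes. They were apart for 1 gene with those libraries lower, beside 9.96% of all genes. Epyc, which encodes epiphycan of cartilage and follows Kera on chromosome 10, had 13.4, 8.07 and 7.25 CPM in knockout-labelled animals, against 5.41, 3.76 and 5.22 CPM in the wild type. These groups did not overlap (log2 fold change 1.00, edgeR adjusted p = 0.238). Chadl, a paralogue of Chad, had 5.28, 2.47 and 2.86 CPM in knockout-labelled animals, against 6.58, 5.78 and 7.12 CPM in the wild type, also without overlap (-0.87, edgeR adjusted p = 0.336). Ecm2, at the head of the chromosome 13 cluster, had 36.7 ± 6.23 CPM in knockout-labelled and 46.3 ± 12.2 CPM in wild-type libraries (SD, n = 3 each). Tsku (-0.45), Podn (-0.05), Nyx (0.04), Optc (0.23) and Podnl1 (0.49) all had groups that overlapped.

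Enzymes that build the chains showed 0 calls as well. For keratan sulphate synthesis, 8 of 9 genes were tested, 4 above and 4 below 0, with a median of -0.06. B4galt1, B3gnt2 and Fut8, the most abundant, had log2 fold changes of 0.12, 0.03 and -0.15. For the linkage region and dermatan sulphate, 10 genes were tested, 4 above and 6 below 0, with a median of -0.09, and Fam20b, a kinase of the linkage region, was the most abundant (-0.16).

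Receptors and ligands of the family had 0 of 12 called, 8 above and 4 below 0, with a median of 0.09. Lrp1, an endocytic receptor for decorin, was the most abundant, at 1601, 1072 and 1345 CPM in knockout-labelled animals, against 1917, 2147 and 1586 CPM in the wild type (log2 fold change -0.49, edgeR adjusted p = 0.299). The 2 biglycan receptor genes Tlr2 and Tlr4, named after their values were seen, had 31.8 ± 3.73 and 20.2 ± 3.85 CPM in knockout-labelled libraries, against 23.1 ± 0.52 and 13.2 ± 1.84 CPM in wild-type libraries (SD, n = 3 each). Neither passed, with log2 fold changes of 0.46 and 0.61 (edgeR adjusted p = 0.237 and 0.258). Of the 3 transforming growth factor beta genes, also named after their values were seen, Tgfb1 and Tgfb3 had log2 fold changes of -0.41 and -0.59 with groups apart (edgeR adjusted p = 0.236 and 0.215), and Tgfb2 had 0.17 with groups that overlapped (edgeR adjusted p = 0.777). Of the processing and cross-linking enzymes, 10 of 11 were tested with 5 above and 5 below 0, a median of -0.07 and 0 called. Mmp3 and Pcolce, an enhancer of procollagen processing, were the most abundant, with log2 fold changes of 0.12 and -0.42. Bmp1, which trims biglycan and osteoglycin precursors and was named after its values were seen, had 58.5 ± 5.54 CPM in knockout-labelled and 82.0 ± 9.85 CPM in wild-type libraries, with groups that did not overlap (-0.49, edgeR adjusted p = 0.185; SD, n = 3 each).

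Markers of cells and tissues that make these proteoglycans are given beside them. The 7 fibroblast markers, 3 of which are collagens of the list above, summed to 1885 to 2374 CPM in knockout-labelled and 2825 to 3807 CPM in wild-type libraries, and all 7 had log2 fold changes below 0 (median -0.28). Of the 7, only the collagens Col1a1 and Col1a2 had groups that did not overlap. They averaged 322 and 1299 CPM of a mean sum of 2100 CPM in knockout-labelled libraries. In the wild type they averaged 725 and 2033 CPM of 3311 CPM. Pdgfra, a fibroblast receptor gene that is no collagen, had a log2 fold change of -0.11 with groups that overlapped. The 4 tendon markers summed to 322 to 472 CPM in knockout-labelled and 477 to 496 CPM in wild-type libraries (median -0.43), with Thbs4 at -0.33 and Tnmd at -0.52. For cartilage and sclera, 8 of 9 genes were in the table and 7 were tested, with summed levels of 361 to 436 CPM and 374 to 583 CPM and a median of 0.05. Comp, the most abundant, had a log2 fold change of -0.28 and Sox9 one of 0.16. Cilp2, next in level, had 11.2, 14.4 and 15.1 CPM in knockout-labelled animals, against 31.3, 26.4 and 46.3 CPM in the wild type, without overlap (log2 fold change -1.35, edgeR adjusted p = 0.114). Acan, singled out after its values were seen, was below 1 CPM in every library. The 5 genes listed for corneal stroma summed to 1082 to 4259 CPM in knockout-labelled and 1006 to 1799 CPM in wild-type libraries (median 0.63, 3 above and 2 below 0). Aldh3a1 alone averaged 1984 of a mean sum of 2931 CPM in knockout-labelled libraries, and 664 of 1343 CPM in the wild type. Whether Aldh3a1 and Tkt came from stroma or epithelium was not tested. The 7 bone markers summed to 198 to 245 CPM and 191 to 226 CPM (median 0.05). In pigment epithelium, melanocytes, endothelium, Schwann cells, photoreceptors and skeletal muscle the medians were -0.30, 0.07, -0.24, -1.12, 0.11 and 0.54. Of all these marker lists and of the epithelial and erythroid lists 0 genes were called. The part of cell composition in the members' values was not tested.

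For each of the 9 members averaging 10 CPM or more, the nearest patterns among 10388 other genes were found by the root mean square difference of centred log2 CPM over the 6 libraries. Galr2 (0.13) and Grin3a (0.23) were nearest to Chad, and Mfap5 (0.11) and Boc (0.12) to Fmod. Cd248 and Col6a1 (0.07 each) were nearest to Bgn, Cd34 (0.06) and Fmo5 (0.07) to Prelp, and Dpt (0.20) and Igfbp2 (0.22) to Aspn. Lum was nearest to Ndufa6 (0.05) and Zfp639 (0.06), Dcn to Baz1b (0.03) and Zc3h10 (0.04), Ogn to Zbtb11 (0.06) and Slc52a3 (0.07), and Omd to Unc5b (0.15) and Tiam1 (0.16). With 6 libraries and this many candidates, these are descriptions only.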

How the data were processed

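Gene counts in whole numbers were deposited by the authors for 6 animals, 1 column each. Reads had been aligned with TopHat and Bowtie to mm10 and counted with HTSeq, per the submitters' processing notes, while versions, annotation and strand setting were not stated there. The authors also deposited an edgeR table of log2 fold changes, coded wild type over knockout, with p-values and FDR values. The 5 tally rows were left out. Reads assigned to no gene were 14.4% to 16.8% of the sum over all rows, ambiguous ones 0.417% to 0.784% and those with several alignments 18.7% to 25.1%.

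The deposited counts went through edgeR 4.0.16 (R 4.3.3). Genes were kept by filterByExpr (10 counts, 15 in total), scaled by TMM and fitted by the quasi-likelihood functions glmQLFit and glmQLFTest, with no covariate beside genotype. Adjustment was by Benjamini-Hochberg over 15796 genes, and calls needed an adjusted p under 0.05. The SE was derived from the fold change and its F statistic, and 95% intervals are not adjusted for the number of genes. CPM use TMM-adjusted library sizes, and levels per kb use merged exons of GENCODE M21 basic transcripts, which may differ from the authors' annotation. Alternatives were DESeq2 1.42.0, limma-voom (limma 3.58.1), the edgeR exact test, other factors and filters, covariates, a GC correction (lowess span 0.3) and libraries left out. The males-only fit was added after seeing the data. The script was tested on simulated counts. Every pair of libraries within a group differed by more than counting noise. The labels list separate animals, so p-values measure the spread between them.

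The members and gene lists were chosen with earlier results of these data known. All 10 members and all 8 other family genes are named. From each other list, where no gene was called, up to 3 with the highest mean CPM are named, and for each member up to 2 nearest genes. Those named after their values were seen are marked as such.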

Additional observations from a re-analysis of the deposited data

Results flagged for a closer look

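For 2 members the genotype difference had one sign between the females and the other in every male, with 1 female in each group. The effect on Kera in females minus that in males was -3.75 on the log2 scale, with Kera lower in the knockout-labelled female and higher in both knockout-labelled males than in both wild-type males. The test of that difference gave an edgeR adjusted p of 0.0769 and did not pass, in a fit whose spread comes from the 4 male libraries alone. For Dcn the same quantity was 0.22 (edgeR adjusted p = 0.76), with a difference of 0.01 between the females and -0.20 between the males. The female comparison rests on knockout-labelled animal 1, the library highest in red cell transcripts.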

How the results depend on the processing

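Of 180 member values under 18 other settings, 172 kept their direction and their side of the threshold, 4 turned sign and 4 became calls. The sign turned for Kera with the cornea marker covariate (-1.08), for Aspn (0.13) and Omd (0.14) in males only, and for Ogn without wild-type replicate 2 (-0.01, the lowest of -0.01 to 0.30 with 1 library left out). Of the members, 2 were called by DESeq2 (Chad and Fmod), 1 by the edgeR exact test and 1 with the cornea marker covariate (Chad each time), and 0 under every other setting, libraries left out included. Over all genes the count of 8 calls became 0 at an adjusted p under 0.01 and 30 at 0.1. It was 15 with upper-quartile factors, 22 with no filter beyond 1 count, 16 with a filter of 1 CPM in 3 libraries, 458 with DESeq2, 13 with limma-voom, 357 with the edgeR exact test, 1 with the sex covariate, 35 with the cornea marker covariate and 874 in males only. With 1 library left out it ran from 0 to 795, the highest count being without knockout-labelled animal 1. Leaving out animal 2 or animal 3 of the knockout-labelled group, or animal 3 of the wild type, gave 0, where edgeR held 1516, 1719 and 1738 genes at an unadjusted p under 0.05. The cause was not tested. Deviations of same-numbered animals correlated at -0.10, -0.09 and -0.07 across genes, and those of differently numbered animals at 0 to 0.09. With 3 animals in each group, such small values cannot decide whether the animal numbers pair the libraries. Animal 1 was the female in both groups, so the numbers do line up with sex. With the animal number as a replicate block 1 gene and 0 members were called. Kera, at 37 to 258 counts per library, was the scarcest member and had the largest SE (0.67). Its SD of log2 CPM was 1.68 among knockout-labelled and 0.75 among wild-type animals. How far depth or the spread between animals set that SE was not tested.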
